A study of Zea mays subsp. mays x Zea mays subsp. mexicana with 20 samples.

Results

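Small RNA clusters that held a larger share of library counts in pollen of both dcl2 mutants than in Dcl2 pollen are described here. The table holds 85421 clusters, which are stretches of the maize genome where sequenced small RNAs pile up. A cluster was taken as a member when it had at least 5 CPM (the count per 1000000 counts of the library) in each of the 4 mutant libraries and when all 4 lay above the higher of both Dcl2 libraries. By this rule 769 clusters were members, or 0.900% of the table. The rule used the counts of all 6 libraries, so differences between the mutants and Dcl2 at members are given as descriptions, without a test.

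The libraries came from pollen of 3 genotypes with 2 biological replicates each. In dcl2-mu1-/- plants a Mu transposon sits in the untranslated leader of Dcl2, in the W22 inbred background. In dcl2T-/- plants the gene is an allele from the teosinte mexicana with amino acid changes in its helicase domain, obtained as recombinants through the female and carried within a stretch of mexicana chromosome 5. The study treats this allele as partly functional. Dcl2 pollen carried the functional allele. The dcl2-mu1 allele came from a Uniform-Mu line and was crossed repeatedly to W22, and the teosinte lineage that carries dcl2T was also bred into W22 by many backcrosses. Genetic experiments of the study used wild-type segregants as controls, but the family of the Dcl2 pollen libraries and the number of plants behind a library are not given in the sources used here. Remaining mexicana or Mu-line background and the allele cannot be told apart. The table lists no mRNA, so the labels were not checked against the level of Dcl2 itself.

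Dicer-like proteins cut double-stranded RNA into small RNAs, and each member of the family cuts its own preferred length. DCL2 makes small interfering RNAs (siRNAs) from hairpin transcripts and from double-stranded RNA that an RNA-dependent RNA polymerase copies from a cleaved transcript. DCL4 acts on many of the same substrates, and DCL3 makes the siRNAs that guide DNA methylation at transposons. Where DCL2 is lost in Arabidopsis, the other Dicers still act on shared substrates. Counts in these files join all read lengths, so a cluster with a different mixture of lengths but as many reads would look unchanged here. Which Dicer made the reads of a member was not tested.

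The libraries differed in depth and evenness. Totals were 1950081 and 4083990 counts in dcl2-mu1, 4357765 and 4920576 in dcl2T, and 3966305 and 4392281 in Dcl2, so that 1 read was worth between 0.203 and 0.513 CPM. Replicate 1 of dcl2-mu1 stood apart, with no read in 78.3% of clusters, against 34.7% to 53.3% in the other 5 libraries. TMM scaling, which assumes that most clusters do not differ, gave this library a factor of 1.30 and the other 5 libraries factors of 0.836 to 1.03. Against CPM on total counts, TMM moved all log2 ratios of dcl2-mu1 to Dcl2 by -0.38, of dcl2T to Dcl2 by -0.16 and of dcl2-mu1 to dcl2T by -0.21. Values are CPM on total counts, as the rule asks, unless TMM scaling is named. In whole pollen, fewer cells that make an siRNA and less of it in each cell cannot be told apart.

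Members made up a larger share of the small RNA in the mutants. They held 28.0% and 25.0% of all counts in the dcl2-mu1 replicates, 22.3% and 21.1% in those of dcl2T, and 16.9% and 17.3% in those of Dcl2. Wilson 95% intervals, which cover counting error only, ran from 27.96% to 28.09% in the first dcl2-mu1 library and from 16.87% to 16.95% in the first Dcl2 library, so counting error was small beside the spread between replicates. The mean share was 26.5% ± 2.11 in dcl2-mu1 pollen, 21.7% ± 0.841 in dcl2T and 17.1% ± 0.301 in Dcl2 (SD, n = 2 each). The rule requires the mutants to lie above Dcl2, and the dcl2-mu1 replicates also lay above those of dcl2T. The median member had 26.7 and 22.5 CPM in dcl2-mu1, 16.8 and 17.9 CPM in dcl2T, and 7.82 and 8.42 CPM in Dcl2.

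The share was concentrated in few clusters. The 6 most abundant members alone held 12.8% ± 0.897 of counts in dcl2-mu1 pollen, 10.5% ± 0.251 in dcl2T and 9.03% ± 0.0343 in Dcl2 (SD, n = 2 each). The other 763 members held 13.7% ± 1.22 in dcl2-mu1 pollen, 11.2% ± 0.591 in dcl2T and 8.09% ± 0.267 in Dcl2.

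**Figure D1:**
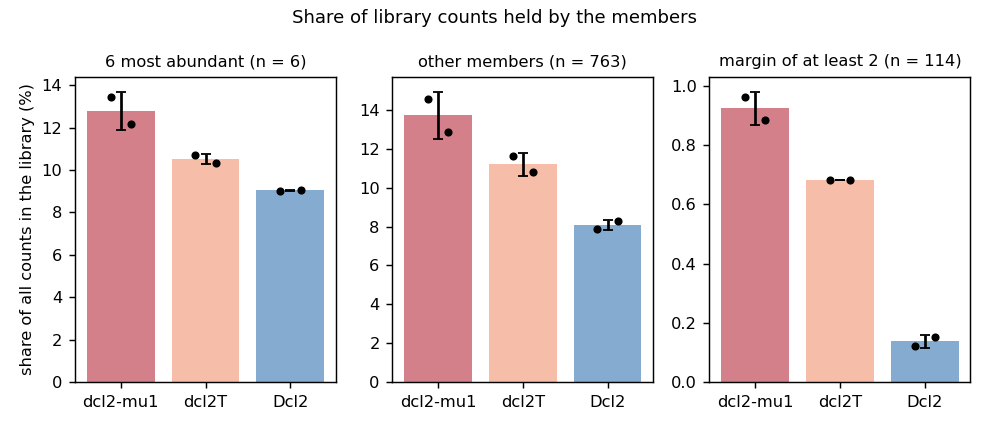
Share of all counts in a library (vertical axes in percent, each from 0) held by the 6 most abundant members, the other 763 members and the 114 members whose lowest mutant library is at least 2 times the higher Dcl2 library. Bars are means, error bars the SD and points the 2 libraries of each genotype, and dcl2-mu1 lies above dcl2T and dcl2T above Dcl2 in each panel, with 12.8%, 10.5% and 9.03% in the first.

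Most members exceeded Dcl2 by little. The margin of a member is the CPM of its lowest mutant library divided by the CPM of its higher Dcl2 library, and it could be computed for the 765 members with a read in Dcl2. Its median was 1.26, with quartiles of 1.10 and 1.60 and a highest value of 27.1. Of all members, 375 (48.8%) had a margin under 1.25, and they held 83.5% of the members' counts in the mutant libraries. A further 280 members (36.4%) lay between 1.25 and 2, 79 (10.3%) between 2 and 4, and 31 (4.03%) at 4 or more, while 4 had no read in Dcl2. With those 4 counted in, a margin of 2 was reached by 114 members, or 3.15% of the 3619 clusters with at least 5 CPM in all 4 mutant libraries, and a margin of 4 by 35, or 0.967%. The 114 held 0.924% ± 0.0567 of counts in dcl2-mu1 pollen, 0.683% ± 0.00101 in dcl2T and 0.137% ± 0.0212 in Dcl2 (SD, n = 2 each).

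These margins set how the membership moved with scaling. With TMM-scaled library sizes, 104 of the 375 members with a margin under 1.25 still had all 4 mutant libraries above both Dcl2 libraries, and 252 of the 280 in the next class did. All 114 members with a margin of at least 2 kept that order with TMM and with median-of-ratios (RLE) scaling, as they had to. Scaling multiplies each library by 1 constant. These constants changed no ratio of a mutant to a Dcl2 library by as much as 2-fold. The whole rule on TMM-scaled values returned 471 clusters, of which 460 were members, equal to 59.8% of the members and 97.7% of the new list.

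**Figure D2:**
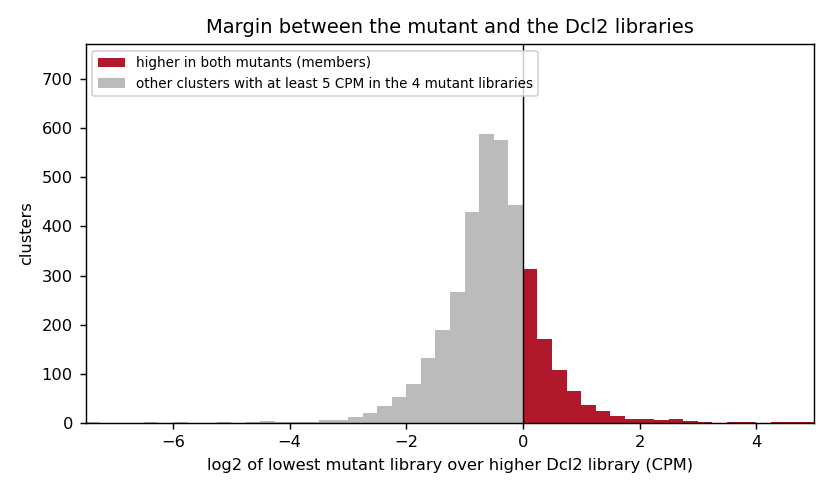
Number of clusters (vertical axis) by the log2 ratio of the lowest mutant library to the higher Dcl2 library (horizontal axis), for the 765 members with a Dcl2 read and for the other 2850 clusters with at least 5 CPM in the 4 mutant libraries. Members lie above 0 by the rule, and most of them lie close to it, with a median ratio of 1.26.

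A ratio of averages over replicates cannot be smaller than the margin, and its median was larger in dcl2-mu1 than in dcl2T. The ratio of mean CPM in dcl2-mu1 to mean CPM in Dcl2 had a median of 2.44 over the 765 members, with quartiles of 1.72 and 4.18. The ratio of dcl2T to Dcl2 had a median of 1.80, with quartiles of 1.47 and 2.48. Both ratios share the Dcl2 libraries. With TMM scaling, an alternative chosen after seeing the data, the medians were 1.88 for dcl2-mu1 and 1.60 for dcl2T. A ratio of at least 2 was reached by 498 members in dcl2-mu1 and by 296 in dcl2T, and a ratio of at least 4 by 199 members in dcl2-mu1 and by 86 in dcl2T. TMM scaling left 352 members in dcl2-mu1 and 240 in dcl2T at 2-fold or more, and 143 in dcl2-mu1 and 74 in dcl2T at 4-fold or more. At 72 members both mutants reached 4-fold. At 65 members dcl2-mu1 reached 4-fold while dcl2T stayed under 2-fold, and at 3 members the reverse was seen. With TMM scaling these counts were 56, 47 and 4. The rule used these values, and no such counts over other clusters stand beside them, so nothing is read from the difference between the mutants.

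The most abundant members were among those with small margins. Cluster_62573 (chr7:134137234-134144169) had 31742 and 31079 CPM in dcl2-mu1, 30387 and 28065 CPM in dcl2T, and 24599 and 23052 CPM in Dcl2. Cluster_41617 (chr4:249016420-249019972) had 33364 and 29494 CPM in dcl2-mu1, 21119 and 21149 CPM in dcl2T, and 20415 and 21036 CPM in Dcl2. Its dcl2T libraries lay barely above Dcl2, and its dcl2-mu1 libraries stood well apart from the other 4.

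Cluster_82886 (chr10:108826367-108829441) had 28615 and 26012 CPM in dcl2-mu1, 24968 and 24817 CPM in dcl2T, and 22128 and 22071 CPM in Dcl2. Cluster_7045 (chr1:184634946-184640520) had 11900 and 11004 CPM in dcl2-mu1, 9084 and 9004 CPM in dcl2T, and 8321 and 8281 CPM in Dcl2. In both clusters the genotypes kept the same order of levels, and no library of one genotype fell within the range of another. On TMM-scaled values these 4 clusters no longer had all mutant libraries above Dcl2.

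Wider separation was seen at the other 2 of the 6. Cluster_29171 (chr3:183199906-183202013) had 13438 and 11568 CPM in dcl2-mu1, 10199 and 9874 CPM in dcl2T, and 6343 and 7333 CPM in Dcl2. Cluster_39622 (chr4:204396984-204402450) had 15268 and 12492 CPM in dcl2-mu1, 11125 and 10428 CPM in dcl2T, and 8280 and 8798 CPM in Dcl2. Both kept all 4 mutant libraries above Dcl2 with TMM scaling, and with RLE scaling Cluster_29171 did and Cluster_39622 did not.

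The share of members changed little with abundance, except near the minimum, where it was larger. Of the 3619 clusters with at least 5 CPM in all 4 mutant libraries, the only ones that could become members, 21.2% did. The share was 31.2% (129 of 413) at a mean mutant level of 5 to 10 CPM and between 17.9% and 21.1% in the 5 higher classes, with 20.6% (33 of 160) at 1000 CPM or more. These shares describe the choice and carry no test.

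The 6 members with the largest margins among those read in Dcl2 were clusters of low or moderate level. Cluster_2445 (chr1:53114841-53116920), the most abundant of them, had 231 and 169 CPM in dcl2-mu1, 129 and 126 CPM in dcl2T, and 5.04 and 5.69 CPM in Dcl2. Cluster_42283 (chr5:5491726-5492275) had 72.8 and 65.9 CPM in dcl2-mu1, 76.6 and 71.9 CPM in dcl2T, and 5.04 and 0.228 CPM in Dcl2. The mutants overlapped at Cluster_42283, whereas at Cluster_2445 both dcl2-mu1 libraries lay above both dcl2T libraries.

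Cluster_50149 (chr5:209856260-209857156) had 20.5 and 40.9 CPM in dcl2-mu1, 36.5 and 33.3 CPM in dcl2T, and 0.756 and 0 CPM in Dcl2. Cluster_31405 (chr3:230067580-230067891) had 10.3 and 28.6 CPM in dcl2-mu1, 28.9 and 27.4 CPM in dcl2T, and 0 and 0.683 CPM in Dcl2. At both clusters replicate 1 of dcl2-mu1 was the lowest mutant library, and it still lay far above Dcl2, where only a few reads were counted.

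Cluster_77639 (chr9:142296446-142297261) had 56.9 and 11.0 CPM in dcl2-mu1, 14.0 and 12.2 CPM in dcl2T, and 0.252 and 0.455 CPM in Dcl2. Cluster_50885 (chr5:222588777-222590178) had 5.13 and 14.9 CPM in dcl2-mu1, 8.95 and 7.72 CPM in dcl2T, and 0.252 and 0 CPM in Dcl2. The replicates of dcl2-mu1 differed from each other by more than the genotype means of the mutants at both of them. In Dcl2, 1 read is worth 0.252 CPM in replicate 1 and 0.228 CPM in replicate 2, so both margins rest on few reads. All 6 clusters kept their order with TMM and RLE scaling, as margins of this size had to.

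At 4 members both Dcl2 libraries had a count of 0. A count of 0 over both libraries allows up to 0.359 CPM, the worth of 3 counts, which is the floor used for these ratios and covers counting error only. Cluster_54196 (chr6:98322752-98323949) had 102 and 109 CPM in dcl2-mu1 and 94.8 and 142 CPM in dcl2T, so it was at least 294-fold higher in dcl2-mu1 and at least 330-fold higher in dcl2T than in Dcl2. Cluster_5568 (chr1:145381745-145381765), only 21 bp long, had 166 and 36.7 CPM in dcl2-mu1 and 128 and 91.5 CPM in dcl2T, which was at least 283-fold higher in dcl2-mu1 and at least 306-fold higher in dcl2T than in Dcl2. Its length is about that of a single small RNA.

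Cluster_16362 (chr2:92962264-92963001) had 23.1 and 21.5 CPM in dcl2-mu1 and 20.0 and 18.5 CPM in dcl2T, at least 62.2-fold higher in dcl2-mu1 and at least 53.6-fold higher in dcl2T than in Dcl2. Cluster_70122 (chr8:143911006-143911532) had 6.15 and 5.14 CPM in dcl2-mu1 and 13.3 and 5.69 CPM in dcl2T, at least 15.7-fold higher in dcl2-mu1 and at least 26.5-fold higher in dcl2T. The 4 clusters lay on different chromosomes, and their mutant libraries overlapped between dcl2-mu1 and dcl2T except at Cluster_16362.

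The edge of the rule was narrow. Just inside it lay Cluster_13967, with 56.9 and 84.2 CPM in dcl2-mu1, 73.0 and 86.4 CPM in dcl2T, and 37.3 and 56.9 CPM in Dcl2, and with a margin of 1.00005. Cluster_24868 and Cluster_49244 followed with margins of 1.0004 and 1.0006. Just outside lay Cluster_29560, Cluster_78953 and Cluster_42952, each with a margin of 0.99975. Cluster_29560 had 95.4 and 70.8 CPM in dcl2-mu1, 13.8 and 11.4 CPM in dcl2T, and 8.82 and 11.4 CPM in Dcl2.

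The same rule was then applied with another pair of libraries in the place of the Dcl2 pair. The Dcl2 pair gave 769 clusters. The 14 other pairs gave between 112 and 984, with a median of 257. The pair of dcl2-mu1 libraries gave the most, 984 clusters that were higher in both dcl2T and Dcl2, and the pair of dcl2T libraries gave 213. Pairs that mixed 2 genotypes gave at most 641, from replicate 1 of dcl2T with replicate 1 of Dcl2. The number of members was thus above all 12 mixed pairs and below the dcl2-mu1 pair.

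With TMM scaling the Dcl2 pair gave 471 clusters and the other 14 pairs gave between 133 and 1388, and 4 of them exceeded the Dcl2 pair. These 4 all included replicate 1 of dcl2-mu1, either with its replicate or with a library of another genotype. TMM gave this library the largest factor, 1.30, which lowers its scaled values beside the others. The 4 pairs gave 984, 608, 406 and 267 clusters on total counts, and 1388, 676, 572 and 478 with TMM scaling. The part of its smaller depth and larger share of clusters without a read was not tested.

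**Figure D3:**
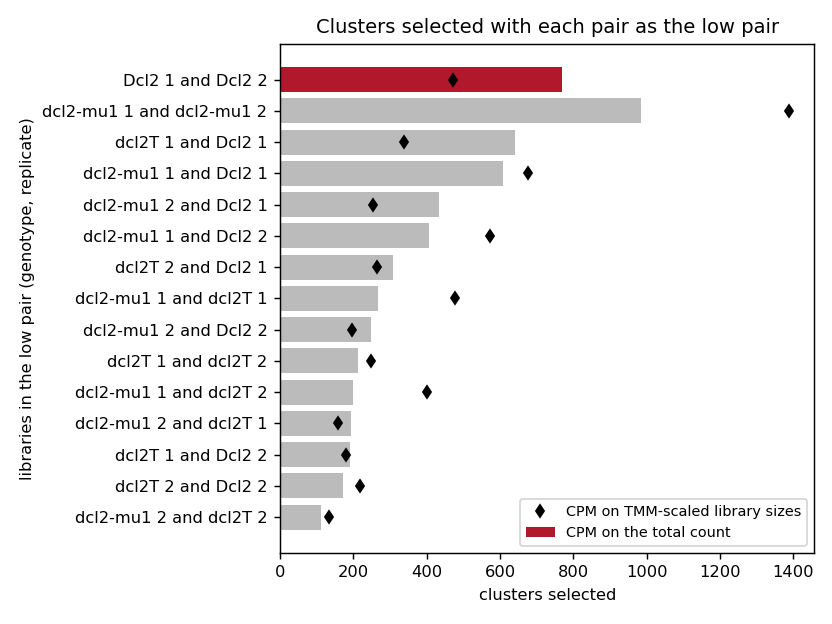
Number of clusters (horizontal axis) in which a given pair of libraries is lower than all 4 others, the others having at least 5 CPM each, for the 15 pairs of 6 libraries. Bars use CPM on total counts, with the Dcl2 pair in red, and diamonds use TMM-scaled library sizes. The Dcl2 pair has 769 clusters on total counts, second to 984 for the dcl2-mu1 pair, and 471 with TMM scaling.

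Clusters chosen on 1 set of replicates were followed in the other. Replicate numbers did not pair samples, so this split by number is arbitrary. Of 2771 clusters chosen on the replicate 1 libraries alone, 2019 had at least 5 CPM in both mutants in replicate 2, and 999 of these (49.5%) again had both mutants above Dcl2. The share was 46.7% (2476 of 5297) over all clusters with at least 5 CPM in both mutants of replicate 2, and 32.1% (514 of 1600) over those that also had this level in replicate 1 but were not chosen. In the other direction the shares were 66.0% (999 of 1513) for chosen clusters, 60.1% (2771 of 4613) for all and 48.4% (1020 of 2106) for those not chosen. On total counts chosen clusters thus exceeded all clusters by little, and unchosen clusters by more. The set of all clusters includes the chosen ones and clusters without 5 CPM in both mutants of the other replicate. With TMM scaling the shares in replicate 2 were 49.5% for chosen, 41.6% for all and 27.7% for unchosen clusters, and in replicate 1 they were 50.4% for chosen, 42.1% for all and 28.4% for unchosen clusters. The shares are descriptions, since clusters within a library are not replicates.

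Clusters moving the other way were set beside the members. A mirrored list, with at least 5 CPM in both Dcl2 libraries and both above all 4 mutant libraries, held 714 clusters on total counts, fewer than the members, but 1224 with TMM scaling and 1467 with RLE scaling, more than the members at any scaling. The 2 rules differ in how many libraries must pass the minimum, so a like comparison took the 3045 clusters with at least 5 CPM in all 6 libraries. There all 4 mutant libraries lay above Dcl2 in 488 (16.0%) and below it in 156 (5.12%) on total counts, a direction that turned with TMM scaling, to 271 (8.91%) above and 342 (11.2%) below among 3042 clusters. With RLE scaling 235 (7.73%) lay above and 446 (14.7%) below among 3040. Whether more clusters were raised or lowered in the mutants therefore depended on the scaling. The 714 mirrored clusters held 18.5% and 17.6% of counts in the Dcl2 libraries. They held 8.09% and 7.91% in dcl2-mu1, and 6.87% and 7.32% in dcl2T. CPM is a share of the library, so lower shares at some clusters come with higher shares at others. The part of this in the values of members was not tested.

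The rule sets no order between the mutants, but it used the values of all 4 mutant libraries, so the order of the mutants over members is partly set by the choice and is given as a description. On total counts, both dcl2-mu1 libraries lay above both dcl2T libraries at 327 members (42.5%), against 30.5% of the 3619 clusters with 5 CPM in the mutants, and below them at 79 members (10.3%), against 22.4%. With TMM scaling the members' shares were 29.8% above and 18.1% below, against 21.1% and 29.9% of the 3619. The median log2 ratio of dcl2-mu1 to dcl2T was 0.31 over members and 0.06 over the other 2850 clusters on total counts, and 0.10 and -0.13 with TMM scaling. Without replicate 1 of dcl2-mu1, an alternative chosen after seeing the data, the median over members was 0.15 and over the other clusters 0.01. The highest of all 6 libraries was replicate 1 of dcl2-mu1 at 398 members (51.8%) and replicate 2 at 180 (23.4%), against 89 (11.6%) and 102 (13.3%) for the dcl2T libraries. Over the 3619 clusters, where Dcl2 libraries may be highest too, these shares were 35.2% and 16.1% for dcl2-mu1, and 10.1% and 15.9% for dcl2T.

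**Figure D4:**
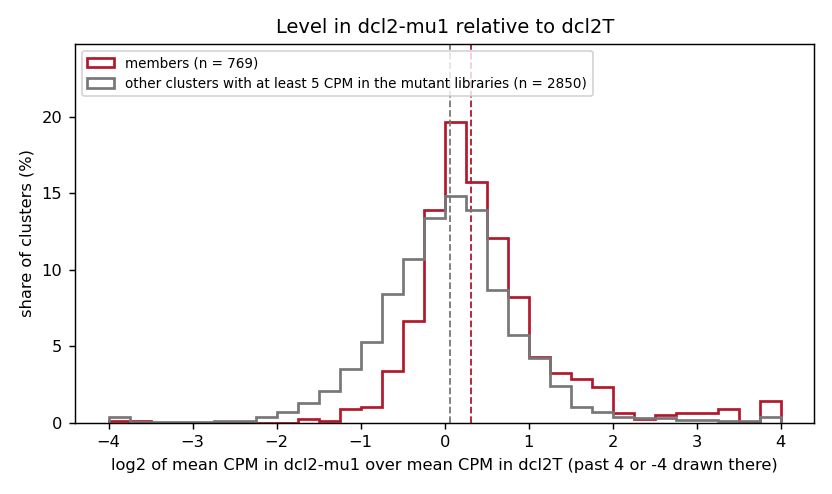
Distribution of the log2 ratio of mean dcl2-mu1 to mean dcl2T CPM on total counts (horizontal axis, past 4 or -4 drawn there) for members and for the other clusters with at least 5 CPM in the mutant libraries, as percent of each set (vertical axis), with dashed lines at the medians. The median is 0.31 over members and 0.06 over the others, and the choice of members used these values.

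The quasi-likelihood test of edgeR, adjusted by Benjamini-Hochberg over 22558 clusters, called 14 members (1.82%) higher in dcl2-mu1 than in dcl2T, with adjusted p no larger than 0.01 and log2 fold change no smaller than 2. The background was 0.164% of all tested clusters and 0.691% of the 3619 with 5 CPM in the mutants. Only 1 member (0.130%) was lower, against 0.199% of tested clusters and 0.47% of the 3619. Unadjusted p was under 0.05 at 76 members (9.88%) higher in dcl2-mu1 and at 7 (0.910%) lower, against 3.37% and 9.94% of all tested clusters. As the choice of members used these libraries, the counts do not show that members differ from other clusters. The median log2 fold change in this fit was 0.10 over members and -0.37 over all tested clusters. The count of 14 was sensitive to every library: it was 7 without dcl2-mu1 replicate 1, 8 without its replicate 2, 3 without dcl2T replicate 1 and 2 without dcl2T replicate 2 or either Dcl2 replicate. It was 3 when only both mutants were fitted, and 31 with DESeq2.

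Cluster_61833 (chr7:115826095-115830018) was the most abundant of these 14. It had 2361 and 1651 CPM in dcl2-mu1, 61.7 and 58.7 CPM in dcl2T, and 40.1 and 45.8 CPM in Dcl2. The log2 fold change of dcl2-mu1 against dcl2T was 4.82 (SE 0.29, edgeR adjusted p = 0.000172). Cluster_2985 (chr1:66913074-66915785) had 728 and 584 CPM in dcl2-mu1, 11.5 and 9.75 CPM in dcl2T, and 4.29 and 3.64 CPM in Dcl2, with a log2 fold change of 5.72 (SE 0.37, edgeR adjusted p = 0.0002). Both passed in all 14 alternative fits, with adjusted p of at most 0.00702. At Cluster_61833 the dcl2T libraries lay close to those of Dcl2, and at Cluster_2985 the lower of them was 2.28 times the higher Dcl2 library.

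Cluster_14486 (chr2:37186047-37191525) had 1361 and 1139 CPM in dcl2-mu1, 139 and 142 CPM in dcl2T, and 138 and 78.3 CPM in Dcl2, with a log2 fold change of 2.93 (SE 0.37, edgeR adjusted p = 0.00746). Cluster_57956 (chr7:4791177-4797404) had 572 and 417 CPM in dcl2-mu1, 67.5 and 55.3 CPM in dcl2T, and 39.3 and 41.7 CPM in Dcl2, with a log2 fold change of 2.78 (SE 0.32, edgeR adjusted p = 0.00494). Both calls ended when any 1 of the 6 libraries was left out. Adjusted p then lay between 0.0185 (without dcl2-mu1 replicate 2) and 0.0671 (without dcl2T replicate 2) for Cluster_14486, and between 0.0107 (without dcl2-mu1 replicate 2) and 0.0818 (without dcl2T replicate 2) for Cluster_57956, while the fold changes stayed between 2.60 and 2.99 on the log2 scale.

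The other 10 members called higher in dcl2-mu1 had the same shape. Their mean levels ran from 101.5 to 502 CPM in dcl2-mu1, from 6.88 to 36.2 CPM in dcl2T and from 4.71 to 23.7 CPM in Dcl2, with log2 fold changes of 2.63 to 3.97 between the mutants. They lay on 6 chromosomes and were between 1556 and 13602 bp long. Among all 14, only 2 had a margin of at least 2, because the dcl2T libraries set the margin.

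The single member called lower in dcl2-mu1 was Cluster_10929 (chr1:271470963-271476195). It had 125 and 130 CPM in dcl2-mu1, 6520 and 1373 CPM in dcl2T, and 119 and 123 CPM in Dcl2. The log2 fold change was -5.18 (SE 0.69, edgeR adjusted p = 0.00994). Without 1 replicate of dcl2-mu1 adjusted p was 0.107 (replicate 1) or 0.0313 (replicate 2), and without 1 replicate of Dcl2 it was 0.0901 (replicate 1) or 0.0867 (replicate 2), so the call ended in 4 of 6 such fits. Without dcl2T replicate 1 the call held, but the log2 fold change was -3.58. Its 2 dcl2T libraries differed from each other by more than 4-fold, and both lay more than 10-fold above the other 4 libraries. Its margin was only 1.02, and on TMM-scaled values not all mutant libraries lay above Dcl2.

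**Figure D5:**
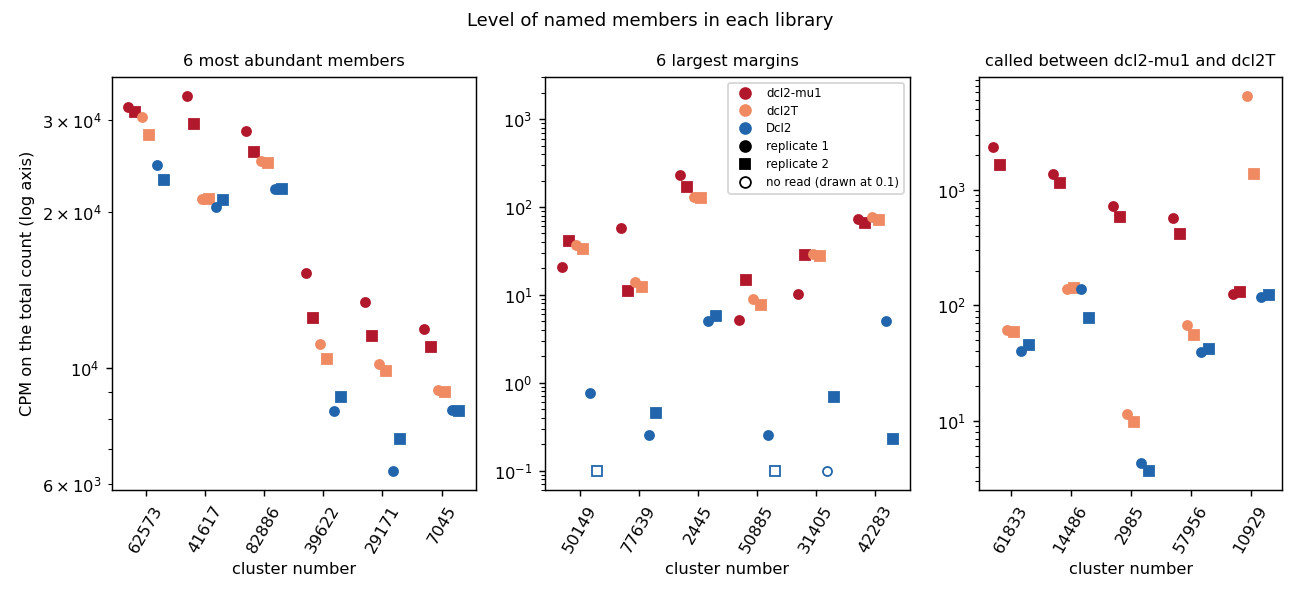
CPM on the total count (log axes) in each of the 6 libraries for the 6 most abundant members, the 6 members with the largest margins and the 5 named members called between dcl2-mu1 and dcl2T. Colour gives the genotype, circles replicate 1, squares replicate 2 and open symbols a library with no read, drawn at the foot of the axis. The mutant points lie just above Dcl2 in the first panel and far above it in the second, while in the third dcl2-mu1 lies far above dcl2T except at Cluster_10929, with 125 and 130 CPM in dcl2-mu1, and 6520 and 1373 CPM in dcl2T.

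Cluster_10927, about 10 kb away (chr1:271459073-271461230) and chosen after its values were seen, had 63.6 and 74.4 CPM in dcl2-mu1, 1230 and 364 CPM in dcl2T, and 61.0 and 62.8 CPM in Dcl2. Here too replicate 1 of dcl2T was the higher, and the margin was only 1.01. Together with Cluster_15835 on chromosome 2, these were the 3 members at least 4-fold higher in dcl2T and under 2-fold higher in dcl2-mu1. Cluster_10926 and Cluster_10928, numbered beside Cluster_10927 and chosen likewise, were not members. Their margins were 0.311 and 0.251, and their log2 ratios of dcl2-mu1 to dcl2T were -7.30 and -5.21.

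Against Dcl2, the same edgeR fit called 25 members higher in dcl2-mu1 and 2 higher in dcl2T, with backgrounds of 0.235% and 0.0177% of tested clusters. The rule used these contrasts, so nothing is read from the counts. Leaving out either Dcl2 replicate left 0 members called in both contrasts.

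In length, members were like the other clusters of their level. The median length was 2683 bp, with quartiles of 1594 and 4274 bp and a range of 19 to 25572 bp, against a median of 2606.5 bp for the other 2850 clusters with 5 CPM in the mutants. Both exceeded the 790 bp of all clusters, most of which were rarely read. Members with larger margins were shorter. The median length was 2826 bp under a margin of 1.25, 2684 bp from 1.25 to 2, 2459 bp from 2 to 4, 1798 bp at 4 or more and 632.5 bp for the 4 members without a Dcl2 read. No member over 10000 bp, of which there were 26, had a margin of 2 or more.

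At the short end, 9 members (1.17%) were under 100 bp, against 0.842% of the other 2850, and 5 of the 9 had a margin of at least 2. Their lengths ran from 19 to 97 bp. Cluster_19419 (chr2:179739710-179739728), chosen after its values were seen, had 25.1 and 48.2 CPM in dcl2-mu1, 34.4 and 19.5 CPM in dcl2T, and 9.58 and 0 CPM in Dcl2. Cluster_49564 (chr5:197958766-197958805), chosen likewise, had 32.3 and 23.5 CPM in dcl2-mu1, 26.6 and 32.1 CPM in dcl2T, and 5.04 and 5.01 CPM in Dcl2. In neither did the mutants separate from each other.

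Members were spread over all 10 chromosomes. Of the clusters with 5 CPM in the mutants, between 17.8% (72 of 405, chromosome 4) and 24.8% (140 of 565, chromosome 1) were members, and chromosome 5, which carries Dcl2 and the mexicana stretch of dcl2T, had 19.9% (90 of 453), below the 21.2% of the genome. Members lay somewhat nearer to chromosome ends. Within the outer 20% of a chromosome at either end stood 57.6% of members (441 of 766), against 50.5% of the other clusters of that level (1435 of 2839), with the end of the last cluster taken as the end of the chromosome. The mirrored clusters, which need 5 CPM only in the Dcl2 libraries and are not matched to members in level, stood there in 38.9%.

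Among clusters of that level, neighbours of members were members more often than neighbours of non-members were. Of the neighbouring clusters with 5 CPM within 10 kb of a member, 42.6% (120 of 282) were members, against 17.7% (162 of 916) of such neighbours of non-members. Within 100 kb the shares were 33.0% (166 of 503) for members and 18.1% (337 of 1865) for non-members. Adjacent clusters may be parts of 1 transcript or share reads that map to several places, so neighbours are not independent.

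With gaps of up to 100 kb, 585 members stood alone and 184 fell into 81 stretches, of which 63 held 2 members, 14 held 3 and 4 held 4. Of the 18 stretches with 3 or more members, 8 lay on chromosome 5, which held 90 members among 453 clusters of that level. No count of such stretches over all clusters of that level stands beside this number, so nothing is read from it. The most abundant stretch (chr5:212565865-212688733) held 4 members among 7 clusters of that level and summed to 3213 and 3028 CPM in dcl2-mu1, 3087 and 2887 CPM in dcl2T, and 2411 and 2499 CPM in Dcl2. Its leading member, Cluster_50283, had 2547 and 2399 CPM in dcl2-mu1, 2476 and 2266 CPM in dcl2T, and 1915 and 1951 CPM in Dcl2.

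The stretch at chr5:180645117-180710236 held 4 members among 6 such clusters, led by Cluster_48761 with 119.5 and 61.0 CPM in dcl2-mu1, 80.5 and 89.8 CPM in dcl2T, and 32.5 and 53.0 CPM in Dcl2. The stretch at chr3:188118090-188156437 held 4 members among 4, led by Cluster_29400 with 121.5 and 111.4 CPM in dcl2-mu1, 133 and 113 CPM in dcl2T, and 95.8 and 75.8 CPM in Dcl2. Of these 3 leading members, Cluster_48761 alone kept all mutant libraries above Dcl2 with TMM scaling.

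Larger differences were found in 2 shorter stretches, chosen after their values were seen. All 3 clusters of that level between 53114841 and 53122066 on chromosome 1 were members, among them Cluster_2445, and they summed to 296 and 262 CPM in dcl2-mu1, 210 and 219 CPM in dcl2T, and 30.8 and 22.8 CPM in Dcl2. All 3 between 20349503 and 20359067 on chromosome 8 were members too, and summed to 471 and 405 CPM in dcl2-mu1, 533 and 544 CPM in dcl2T, and 36.3 and 99.7 CPM in Dcl2. The mutants were ordered differently in the 2 stretches, with dcl2-mu1 the higher on chromosome 1 and dcl2T the higher on chromosome 8.

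Within the chromosome 8 stretch, Cluster_65755 (chr8:20353991-20359067) carried most of the reads, with 349 and 334 CPM in dcl2-mu1, 450 and 475 CPM in dcl2T, and 28.5 and 92.0 CPM in Dcl2. Cluster_65753 next to it (chr8:20349503-20351300) had 110 and 51.9 CPM in dcl2-mu1, 50.5 and 36.4 CPM in dcl2T, and 5.80 and 3.19 CPM in Dcl2. Both clusters lay above Dcl2 in all mutant libraries, but with the mutants in opposite order.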

How the data were processed

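Pollen small RNA of dcl2-mu1, dcl2T and Dcl2 plants was analysed in 6 libraries, grouped by the labels. Another 14 samples were not analysed here. The authors trimmed adapters with cutadapt, removed the identifier bases at read ends, filtered structural RNAs with Bowtie2 and called clusters with ShortStack. The build, and how reads with several places were assigned, are not given in the sources used here. Clusters were therefore matched to no gene, and coordinates are those of the table. The deposited values are raw counts per cluster and library. The minimum of 5 CPM was applied to counts divided by the column total.

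The test between genotypes was that of edgeR 4.0.16, run in R 4.3.3. It used filterByExpr (minimum count of 10, minimum total of 15), TMM, 1 coefficient per genotype, glmQLFit and glmQLFTest on all 6 libraries, and Benjamini-Hochberg adjustment. A check on simulated data used a smaller spread than these data have and planted changes only at abundant clusters. How well the test works at members was thus not tested. A call needed adjusted p no larger than 0.01 and log2 fold change no smaller than 2, either way. The biological coefficient of variation was 82.7%. All 769 members passed the filter. P-values measure the spread between the 2 libraries of a genotype, with the estimate shared by all 3 genotypes. The Dcl2 libraries thus enter the test between the mutants too. Standard errors are approximate, as fold change over the root of F. Replicate numbers did not pair samples (correlation of replicate differences between -0.01 and 0.00).

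Members and lists were chosen with earlier results of these data known. Named clusters were the 6 most abundant members, the 6 with the largest margin, the 4 most abundant with no Dcl2 read, up to 4 in each direction called between the mutants, 3 on each side of the rule's edge, and the leading member of the 3 stretches with most members, keeping 1 of clusters under 10 kb apart. Members overlapping a locus with a listed RNA sequence were also to be named, and 0 did (18 of 208 such loci overlapped any cluster). With so few matches, and the build of the clusters not given, nothing is read from this. Alternatives were other minimum levels, margins, scalings and filters, thinned counts, DESeq2 1.42.0, fewer genotypes, a replicate block and each library left out. Thinning drew each library down to 1950081 counts. RLE scaling of the mirrored list was added after seeing the data.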

Additional observations from a re-analysis of the deposited data

How the results depend on the processing

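The number of members, 769 on total counts, was 1392 with a minimum of 2 CPM, 479 with 10 CPM, 280 with 20 CPM, 471 with TMM scaling, 407 with RLE scaling, 114 with a margin of 2, 35 with a margin of 4 and 711 with thinned counts. Leaving out 1 library drops a condition, and gave 1061 to 1726 members (1212 without dcl2-mu1 replicate 1, 1726 without Dcl2 replicate 2). The 714 mirrored clusters became 358 with 10 CPM, 1224 with TMM and 1467 with RLE scaling, and 849 to 2844 with 1 library left out (2844 without Dcl2 replicate 1, 2351 without its replicate 2). The 999 clusters that met the rule in both replicates became 613 with 10 CPM and 624 with TMM scaling.

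Of members called between genotypes by edgeR, the 14 higher in dcl2-mu1 than in dcl2T became 18 by library size alone, 19 with no filter, 3 with only both mutants fitted, 31 with DESeq2 and 2 to 8 with 1 library left out. The 1 lower became 2 by library size alone, with no filter and with DESeq2, 0 with a filter of 5 CPM and with only both mutants fitted, and 0 to 2 with 1 library left out. The 2 higher in dcl2T than in Dcl2 became 5 by library size alone, 23 with no filter, 0 with a filter of 5 CPM, 33 with DESeq2 and 0 to 5 with 1 library left out. The 25 higher in dcl2-mu1 than in Dcl2 became 46 by library size alone, 55 with no filter, 81 with DESeq2 and 0 to 23 with 1 library left out. Over all clusters, the 37 higher and 45 lower in dcl2-mu1 than in dcl2T became 191 and 248 with DESeq2, 122 and 233 with no filter, 69 and 76 with the block described next, 12 and 12 with only both mutants fitted, and, with more higher than lower, 62 and 52 by library size alone and 29 and 26 with a filter of 5 CPM. Replicate numbers are only names here, and a replicate block gave 18 members higher and 2 lower in dcl2-mu1 than in dcl2T, 10 higher in dcl2T and 49 higher in dcl2-mu1 than in Dcl2. The 5 clusters named from the test between the mutants kept their direction in all fits, and the causes were not tested. Depth limits members near the minimum, where 5 CPM is about 10 reads in the shallowest library.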
